A study of Mus musculus with 9 samples.

Results

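The genes described here are 10 olfactory receptor (OR) genes of 1 cluster on mouse chromosome 13: Olfr1359, Olfr1360, Olfr1361, Olfr1362, Olfr1364, Olfr1365, Olfr1366, Olfr1367, Olfr1368 and Olfr1370. They are listed by symbol and were chosen by their measured levels in these samples, that is, by how each differed between control, 1% and 100% heptanal. They are 10 of the 1248 OR genes among the 23607 genes in the deposited count tables. The tables hold 9 of them under their own symbol, and Olfr1365 under Olfr1535, of which it is a RefSeq synonym. It is called Olfr1535 from here on. The data are RNAseq counts from the pS6-IP of the olfactory epithelium of 9 C57BL/6 mice. Of these, 3 were controls that smelled distilled water, 3 smelled 1% heptanal and 3 smelled 100% heptanal, each for 1 hr from 10 µl on filter paper. One mouse of each group was at postnatal day 22 (P22), one at P21 and one at P18. The 3 mice of a given day came from 1 litter and did not differ in sex, so each postnatal day is called a litter below, and day, litter, sex and preparation cannot be told apart.

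Each mature olfactory sensory neuron (OSN) transcribes a single OR gene, from 1 allele, and OR genes lie in clusters on many chromosomes. When an odorant opens the cyclic-nucleotide-gated channel of an OSN through its receptor, the cell depolarises and the ribosomal protein S6 becomes phosphorylated. An antibody against phosphorylated S6 then recovers ribosomes, with the mRNAs on them, mostly from activated cells. Where an OR has more counts after heptanal, an aliphatic aldehyde, more of its mRNA was therefore recovered with phosphorylated ribosomes. Fewer OSNs of a type and less OR mRNA per OSN cannot be told apart in such bulk samples.

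On GRCm38, which is mm10, the 10 genes span 637.5 kb of chromosome 13, from Olfr1370 at 21069334-21074947 to Olfr1359 at 21698111-21706833 in the GENCODE annotation. Olfr1370 and Olfr1368 (21141882-21145867) lie at the low end, 389.2 kb from Olfr1366, with Olfr1367 (21346910-21347964) alone in between. The others are packed into 171.7 kb, in the order Olfr1366 (21535113-21542808), Olfr1535 (21553894-21559893), Olfr1364 (21571813-21581759), Olfr1362 (21610978-21614022), Olfr1361 (21656880-21663386), Olfr1360 (21673431-21677405) and Olfr1359. Of the 10 genes, 8 are on the minus strand, and Olfr1367 and Olfr1359 are on the plus strand. By their RefSeq synonyms 9 belong to receptor family MOR256, and Olfr1366 belongs to MOR130. The same stretch holds 3 further OR genes of MOR256 that are not members, Olfr1369-ps1, Olfr263 and Olfr11.

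The coding sequences of most members are far apart, and this decides how well 50-base reads can be told apart. Over the 36 pairs without Olfr1366 the identity of the coding sequences was 58.56% to 99.68%, with a median of 62.33%. Olfr1366 was 53.74% to 55.95% identical to the 9 others. Olfr1364, Olfr1362 and Olfr1361 were closest to each other, at 68.32%, 68.23% and 67.82% for the 3 pairs. The following coding stretch of 60 bases, taken from GRCm38 at the place aligned to coding bases 352 to 411 of Olfr1362, shows the distance between the 4 members that the results turn on, with bases that differ from Olfr1362 in capitals:

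Olfr1362, chr13:21611557-21611616, minus strand: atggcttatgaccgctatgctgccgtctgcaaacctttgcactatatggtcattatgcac
Olfr1361, chr13:21658896-21658955, minus strand: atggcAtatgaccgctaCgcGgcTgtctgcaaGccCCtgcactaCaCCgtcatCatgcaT
Olfr1364, chr13:21574026-21574085, minus strand: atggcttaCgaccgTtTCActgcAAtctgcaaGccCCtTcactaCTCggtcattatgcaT
Olfr1359, chr13:21703354-21703413, plus strand: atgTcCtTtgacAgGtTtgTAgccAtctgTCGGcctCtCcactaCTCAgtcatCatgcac

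Olfr1361 differed from Olfr1362 at 12 of these 60 bases, Olfr1364 at 15 and Olfr1359 at 20. Every 50-base stretch of the exons of Olfr1361, Olfr1362, Olfr1364, Olfr1366, Olfr1367, Olfr1368 and Olfr1370 occurs at 1 place in the genome. All counts of these genes were accordingly from reads with 1 place, and for Olfr1535 the share was 99.9%.

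Olfr1359 and Olfr1360 are the exception. Their coding sequences, of 939 bases each, differ at 3 bases, which are G90A, C318T and C326G from Olfr1359 to Olfr1360, counted from 1 at the start of the coding sequence. The stretch of 253 coding bases that holds all 3 is printed for both genes from GRCm38, with the differing bases in capitals, because these are the only coding positions that can assign a read to 1 of the 2 genes:

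Olfr1359, chr13:21703084-21703336, plus strand: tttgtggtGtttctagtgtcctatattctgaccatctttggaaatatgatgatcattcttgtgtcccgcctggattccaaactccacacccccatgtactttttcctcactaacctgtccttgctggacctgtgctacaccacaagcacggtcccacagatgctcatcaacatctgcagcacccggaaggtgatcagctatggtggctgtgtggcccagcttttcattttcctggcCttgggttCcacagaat
Olfr1360, chr13:21674609-21674861, minus strand: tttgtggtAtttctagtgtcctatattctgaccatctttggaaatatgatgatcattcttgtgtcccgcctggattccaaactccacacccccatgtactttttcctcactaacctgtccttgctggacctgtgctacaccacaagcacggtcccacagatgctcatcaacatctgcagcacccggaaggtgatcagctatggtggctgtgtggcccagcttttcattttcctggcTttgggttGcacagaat

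Of the 50-base stretches inside either coding sequence, 12.1% occur once in the genome. Over the whole exons of Olfr1359, with its untranslated ends, 77% occur once, and the other 995 of 4327 also occur in Olfr1360. The exons are those of GENCODE, which stand in here for the extended gene models on which the authors counted. Reads that fit both genes were assigned by the authors' rescue scheme, and in 6 of the 9 mice Olfr1360 received a count of 0, so that the reads with several places stood under Olfr1359.

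The library totals were 5438494 to 9707592 estimated counts per mouse, with a median of 7305895. The ORs together had 10223 to 64455 counts, and 273 to 732 OR genes had a count in a given mouse. In each group the mouse of P22 had the fewest OR genes detected. The P22 litter had 273 to 480 against 463 to 732 in the other litters, so the ranges overlap. The values that moved most without the P22 litter are given beside the results. The levels below are CPM, the usual unit of counts divided by library size, with TMM factors. All 7 markers of mature OSNs, such as Omp, were present, and their summed level was 4660 to 9710 CPM in controls, 6840 to 9450 at 1% heptanal and 11700 to 16700 at 100% heptanal. Omp made up most of this sum, with 3300 to 6510, 4800 to 6600 and 8710 to 12000 CPM in the same order. At 100% heptanal 2 of the 7, Omp and Stoml3, were called higher, beside 0.322% of all genes. The 4 markers of sustentacular cells, which support OSNs, also had a higher sum at 100% heptanal, 4850 to 6360 CPM, than in controls, 2740 to 3490, and at 1% heptanal, 2920 to 4050. Their part in the results was not tested. The activity genes Fos, Fosb, Egr1 and Nr4a1 rose at 100% heptanal, by 2.18 to 4.98 on the log2 scale (edgeR's quasi-likelihood test, adjusted p from 0.00136 to 0.00695). Junb (0.99, adjusted p = 0.0697) and Arc (-0.14, adjusted p = 0.963) did not pass in the same edgeR test. At 1% heptanal 0 of the 6 activity genes passed, beside 0.00% of all genes. Fosb had 3.87, 2.4 and 1.77 CPM in the controls of P22, P21 and P18, and 6.49, 6.6 and 8.86 CPM at 1% heptanal. Its log2 fold change at 1% heptanal was 1.51. Those of Fos, Egr1, Arc, Nr4a1 and Junb were -0.37, 0.06, -1.05, -0.02 and -0.05.

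Of the 10 members, 7 passed the filter on low counts and could be tested, and the filter favours genes that are high in at least 1 group. Olfr1367 had a count of 0 in all 9 mice. A count of 0 allows up to 3 counts, which is 0.309 to 0.552 CPM. Olfr1366 had 2 counts, in the P21 control. Olfr1360 had 2 counts in the P22 control, 2 in the P22 mouse and 1 in the P18 mouse at 100% heptanal, after rounding. These 3 genes have no fold change.

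At 100% heptanal the levels of Olfr1364, Olfr1362, Olfr1361 and, less regularly, Olfr1368 were above those of controls, and Olfr1359 had its highest level at 1% heptanal in each litter when rescued reads were included. Olfr1370 and Olfr1535 mainly differed between litters. These contrasts were in view when the members were listed, and both heptanal groups were set against the same 3 controls. The fold changes are therefore descriptions, given as log2 values with their standard error (SE) from a fit with litter as a block.

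Olfr1362, a MOR256 receptor in the packed part of the cluster, had 3.25, 7.47 and 7.71 CPM in the controls of P22, P21 and P18. At 1% heptanal it had 10.9, 6.25 and 7.58 CPM in the same order, and at 100% heptanal 51.6, 38.1 and 25.4 CPM. The 1% values lie in and around the control range, and all 3 mice at 100% lie above the other 6. The mean was 6.14 ± 2.51 CPM (SD, n = 3) in controls, 8.25 ± 2.40 at 1% heptanal and 38.4 ± 13.1 at 100% heptanal. The log2 fold change was 2.58 ± 0.42 (SE) for 100% heptanal against controls, 0.38 ± 0.42 for 1% against controls and 2.20 ± 0.41 for 100% against 1%. Against the control, the difference within a litter was largest at P22 at both concentrations. Without that litter the value at 1% heptanal turned to -0.13, and that at 100% was 2.04.

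Olfr1361, the next MOR256 receptor beyond the non-member Olfr11, had a course like that of Olfr1362. Its controls had 4.65, 10.1 and 0.885 CPM at P22, P21 and P18, the mice at 1% heptanal 7.37, 7.47 and 6.59 CPM, and the mice at 100% heptanal 36.8, 82.0 and 19.4 CPM. Again the 3 mice at 100% lie above all others, although they spread over a wide range, 46.1 ± 32.4 CPM (SD, n = 3). On the log2 scale the fitted difference of Olfr1361 was 3.23 ± 0.49 at 100% heptanal, 0.89 ± 0.50 at 1% heptanal and 2.34 ± 0.47 for 100% against 1%. It was the member whose differences within litters were the most alike at 100% heptanal among the 5 that were higher in each litter, 2.86, 2.96 and 3.84 on the log2 scale after adding 0.5 CPM.

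Olfr1364 had the highest mean CPM of the members in each group. It had 5.11, 49 and 20.1 CPM in the controls of P22, P21 and P18, 3.24, 146 and 61.7 CPM at 1% heptanal, and 151, 229 and 79.4 CPM at 100% heptanal. At P21 and P18 the mouse at 1% already lay well above its control, and at P22 it did not. The 100% mice all lie above the controls but overlap with those at 1%. The log2 fold change was 3.24 ± 0.83 at 100% heptanal, 1.33 ± 0.77 at 1% heptanal and 1.91 ± 0.83 for 100% against 1%. Both values for 100% heptanal depend on the P22 litter. Against the control the differences within litters were 4.75, 2.21 and 1.96 on the log2 scale at P22, P21 and P18, and the fitted value was 2.10 without the P22 litter and 1.85 without its mouse at 100%. Against 1% heptanal they were 5.34, 0.65 and 0.36, and the fitted value was 0.51 without that litter.

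Olfr1368 lies in the distant low end of the cluster. It had 0.929, 24.8 and 9.86 CPM in the controls of P22, P21 and P18, 0, 14.2 and 11.4 CPM at 1% heptanal, and 25.1, 39.0 and 26.4 CPM at 100% heptanal. The lowest mouse at 100% was barely above the highest control, and both were above every mouse at 1%. The log2 fold change of 2.20 ± 0.90 at 100% heptanal came in large part from P22, where the difference was 4.17 on the log2 scale, against 0.64 at P21 and 1.38 at P18. It was 0.99 without the P22 litter and 0.87 without the P22 mouse at 100%. At 1% heptanal it was -0.41 ± 0.85.

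Olfr1359, at the far end of the cluster, was the only one of the 7 members with its highest mean at 1% heptanal. It had 0.929, 8.46 and 9.48 CPM in the controls of P22, P21 and P18, 17.5, 45.7 and 71.4 CPM at 1% heptanal, and 9.72, 35.1 and 23.5 CPM at 100% heptanal. In each litter the mouse at 1% heptanal was highest and the control lowest, and both heptanal groups lie above all controls. The log2 fold change was 2.98 ± 0.36 at 1% heptanal and 2.04 ± 0.36 at 100% heptanal, and 100% against 1% was -0.94 ± 0.33. A level at 1% above that at 100% in all 3 litters was found in 14 of the 448 OR genes tested, which is 3.12%, and in 1 of the 7 members.

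**Figure D1:**
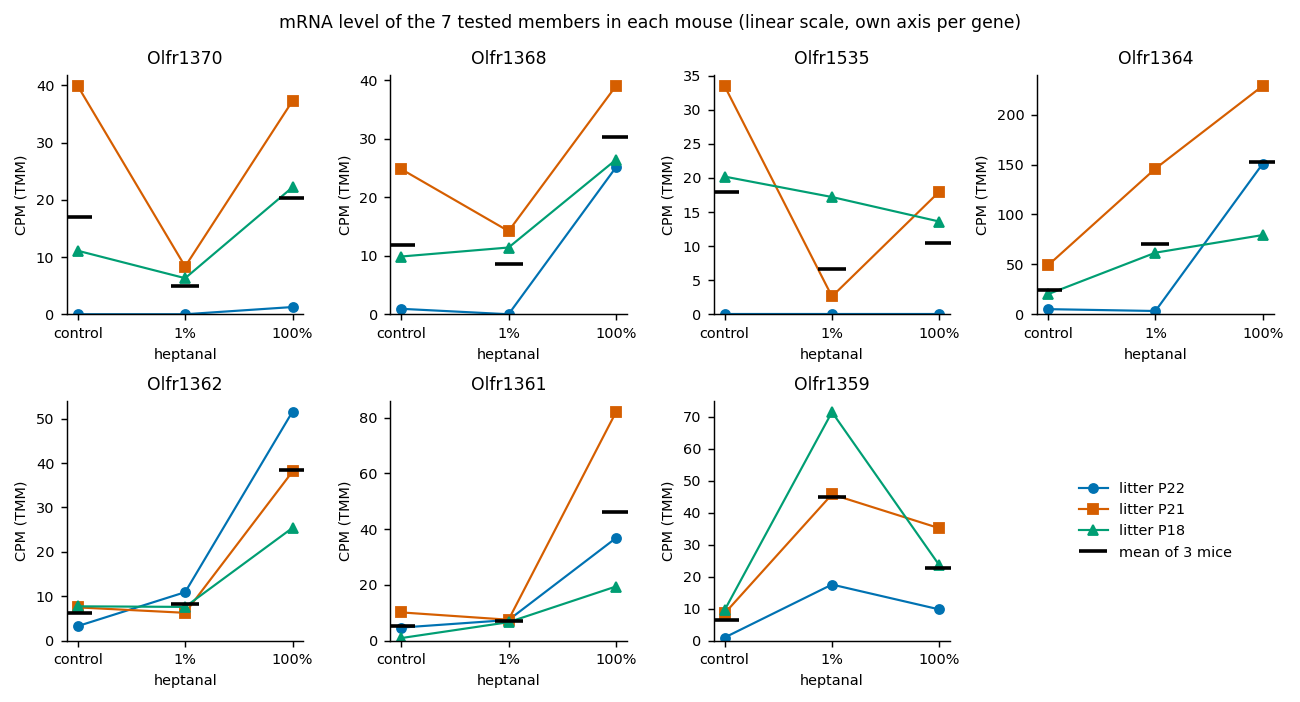
Level of the 7 tested members in each of the 9 mice, in CPM after TMM scaling, on a linear axis of its own for each gene. The x axis gives control, 1% and 100% heptanal, each line joins the mice of 1 litter and black bars are means of 3 mice. Olfr1362 and Olfr1361 stay low at 1% and are highest at 100% heptanal in all 3 litters, Olfr1359 is highest at 1% in all 3, and Olfr1535 is at 0 in all mice of P22.

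Olfr1370 and Olfr1535 were not higher at 100% heptanal in a regular way. Olfr1370 had 0, 39.9 and 11.1 CPM in the controls of P22, P21 and P18, 0, 8.34 and 6.30 CPM at 1% heptanal, and 1.26, 37.3 and 22.2 CPM at 100% heptanal. Its level at 1% heptanal was below that at 100% in each litter, but the controls overlap with both groups. The fitted log2 difference of Olfr1370 was 0.76 ± 0.55 at 100% heptanal, -1.49 ± 0.59 at 1% heptanal and 2.25 ± 0.59 for 100% against 1%. Olfr1535 had 0 CPM in all 3 mice of P22. In the other 2 litters it had 33.5 and 20.2 CPM in controls, 2.61 and 17.2 CPM at 1% heptanal and 18.0 and 13.6 CPM at 100% heptanal, at P21 and P18. The controls were thus highest in both of these litters, and the log2 fold change was -0.78 ± 0.74 at 100% heptanal and -1.55 ± 0.81 at 1% heptanal. The value of Olfr1535 at 1% depended on single mice, with -3.57 without the P18 mouse at 1% and -0.31 without the P21 mouse at 1%, and that at 100% turned to 0.30 without the P21 control.

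Calls by the false discovery rate (FDR) are given as counts beside the share of genes called, because the members were listed with these contrasts known. At 1% heptanal, 0 of the 7 members tested passed an adjusted p of 0.05 in edgeR's quasi-likelihood test over 14930 genes, beside 0.00% of all genes, and 2 passed at an unadjusted p under 0.05, 1 higher and 1 lower, as did 487 of all genes. The likelihood ratio test and DESeq2 each called 1 member, Olfr1359, among 14 and 3 genes called in all. At 100% heptanal, 1 of 7 members was called, Olfr1361, beside 0.322% of all genes and 1.79% of the OR genes tested. That call was lost when any 1 of the 3 controls or of the 3 mice at 100% heptanal was left out, and without the block of litter, where 0 members were called. Most other genes lost their call too. Over all genes 1 to 16 were called when 1 of these mice was left out and 2 without the block, against 48. Without the mouse of P22 at 1% heptanal 2 members were called, Olfr1361 and Olfr1362, and without the whole litter of P22 1 was called, Olfr1364. For 100% against 1% heptanal 0 of 7 members were called beside 0.0804% of all genes, and 6 passed at an unadjusted p under 0.05, 5 higher and 1 lower. At that p 157 of the 448 OR genes were higher and 6 lower. The likelihood ratio test and DESeq2 each called 3 members, among 226 and 211 genes called in all.

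With p-values adjusted over the 448 OR genes tested, 4 of 7 members were called higher at 100% heptanal, Olfr1364, Olfr1362, Olfr1361 and Olfr1359, beside 8.93% of the OR genes. At 1% heptanal 1 member was called higher, Olfr1359, which was also the only one of the 448 OR genes called higher (0.223%). For 100% against 1% heptanal 3 members were called higher, Olfr1370, Olfr1362 and Olfr1361, beside 14.3% of the OR genes.

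The order of the groups can also be counted without a test. Of the 7 members, 5 were higher at 100% heptanal than the control in all 3 litters, beside 43.3% of the OR genes tested, and the same 5 had all 3 mice at 100% above all 3 controls, beside 20.1%. Only Olfr1359 was higher at 1% heptanal than the control in all 3 litters, beside 5.36% of the OR genes, and it was also the only member with all 3 mice at 1% above all controls, beside 2.01%. The median log2 fold change at 100% heptanal was 2.20 over the 7 members, 1.13 over the OR genes tested and -0.00 over all genes. At 1% heptanal it was 0.38 over the members, -0.19 over OR genes and -0.01 over all genes.

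**Figure D2:**
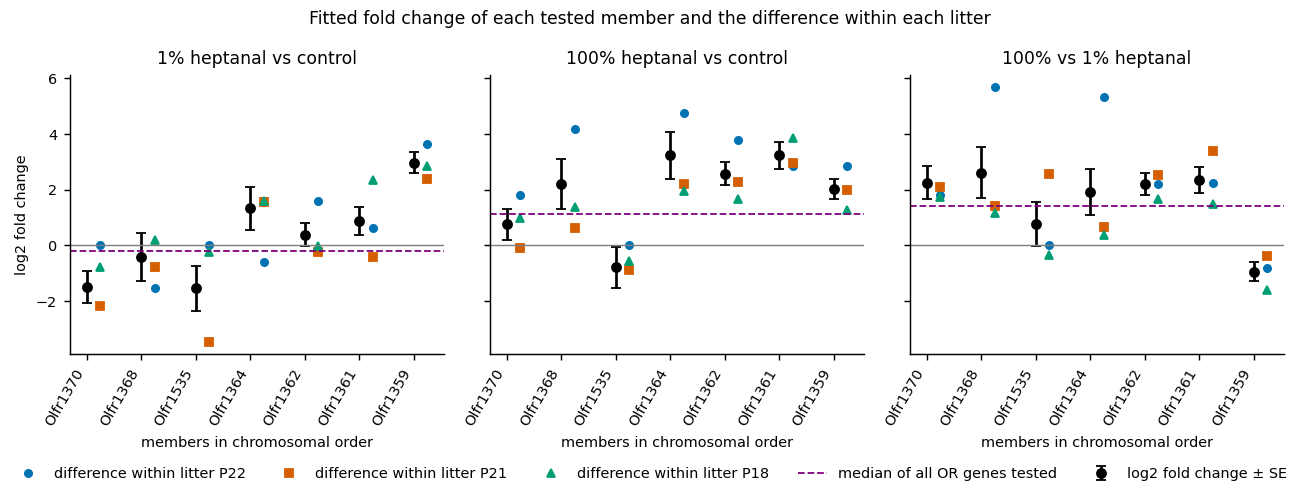
Log2 fold change of the 7 tested members in chromosomal order for the 3 contrasts, as fitted values with their SE (black) and as the difference within each litter after adding 0.5 CPM (coloured). The dashed line is the median of the 448 OR genes tested, at -0.19, 1.13 and 1.40, and among the fitted values Olfr1359 is the only member above 2 at 1% heptanal and the only one below 0 for 100% against 1%.

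Because OSN markers and OR mRNAs as a whole were more abundant in the pS6-IP at 100% heptanal, the scale matters for the size of these values. Scaling to 5 markers of mature OSNs moved the median of all genes at 100% heptanal to -0.81 on the log2 scale, and TMM factors taken over OR genes moved it to -0.98. The log2 fold change of Olfr1362 was then 1.73 and 1.58, that of Olfr1361 2.56 and 2.39, that of Olfr1364 2.44 and 2.23 and that of Olfr1359 1.23 and 1.09. Such scaling shifts all genes by nearly the same amount, so the distance of a member from the median of all genes is nearly fixed in advance. The median of the OR genes tested came down as well, from 1.13 under TMM to 0.37 and 0.25. For Olfr1370 the value at 100% heptanal came down to 0.11 and 0.06. The value of Olfr1359 for 100% against 1% heptanal went to -1.80 and -2.01, with the median of all genes at -0.84 and -1.04. No member changed its direction under these scales in any of the 3 contrasts.

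The levels of the members can be compared per kilobase of GENCODE exon, although the counts were made on the authors' extended gene models, whose lengths may differ and were not used here. At 100% heptanal the mean was 49 CPM per kb for Olfr1364, followed by 21.6 for Olfr1368, 16.5 for Olfr1361, 12.6 for Olfr1362, 5.14 for Olfr1359, 4.69 for Olfr1370 and 2.65 for Olfr1535. In controls the order was Olfr1368 with 8.48 CPM per kb, Olfr1364 with 7.94, Olfr1535 with 4.53, Olfr1370 with 3.93, Olfr1362 with 2.02, Olfr1361 with 1.87 and Olfr1359 with 1.42. Neighbours in either order overlap over the 3 mice, except that all values of Olfr1362 at 100% heptanal lie above those of Olfr1359. At 1% heptanal Olfr1364 was highest with 22.5 CPM per kb, and Olfr1359, the lowest of the 7 in controls, came next with 10.1.

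Olfr1359 also depends on how reads with several places were assigned. In the P22 litter 0 of 6, 22 of 119 and 16 of 85 counts came from reads with 1 place, in control, 1% and 100% heptanal. At P21 these were 29 of 60, 113 of 263 and 156 of 250, and at P18 56 of 75, 567 of 726 and 161 of 206. The share with 1 place was thus 0% to 18.9% at P22, 43.0% to 62.4% at P21 and 74.7% to 78.2% at P18, and it differed far more between litters than between groups. Over all mice it was 62.6%. Divided by the same library sizes, the reads with 1 place gave 0, 3.24 and 1.83 CPM in control, 1% and 100% heptanal at P22, 4.09, 19.6 and 21.9 at P21, and 7.08, 55.8 and 18.3 at P18. With these reads alone the level at 1% was thus highest in 2 of the 3 litters, and at P21 that at 100% was higher. With reads of 1 place alone, the log2 fold change of Olfr1359 was 2.91 at 1% heptanal, 2.15 at 100% heptanal and -0.76 for 100% against 1%. With the counts of Olfr1359 and Olfr1360 summed into 1 gene it was 2.92 at 1% heptanal and 1.99 at 100% heptanal.

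**Figure D3:**
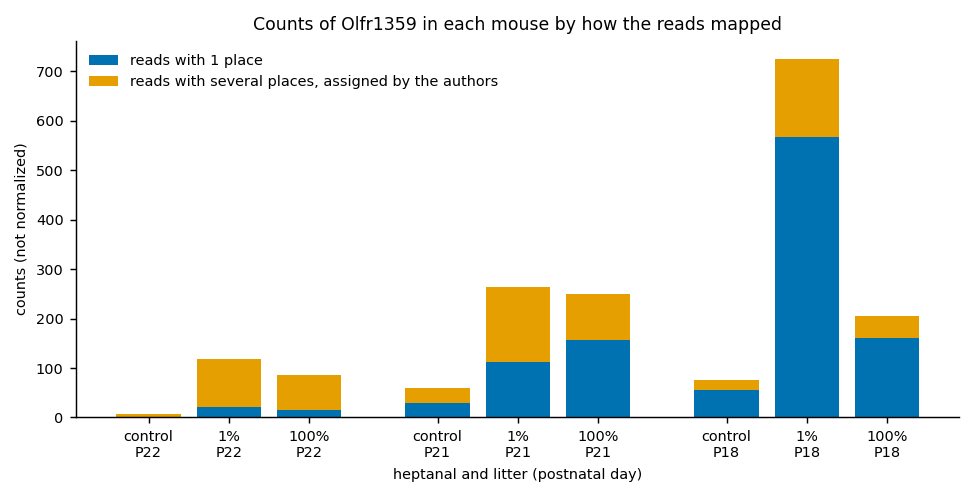
Counts of Olfr1359 in each mouse, not normalized, split into reads with 1 place in the genome (blue) and reads with several places that the authors assigned (orange). The blue part is 0 of 6 counts in the P22 control and 567 of 726 in the P18 mouse at 1% heptanal, and its share is lowest in all 3 mice of P22.

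Together the 10 members took 0.766%, 3.15% and 2.34% of the OR counts in the controls of P22, P21 and P18. At 1% heptanal they took 2.59%, 5.67% and 3.51%, and at 100% heptanal 5.17%, 5.39% and 2.86%. The share was above the control in each litter at both concentrations, and the ranges of the 3 groups overlap. At P21 and P18 it was lower at 100% than at 1% heptanal. The members were listed by their levels in these groups, so the order is a description. Olfr1364 alone held 1319 of 2410, 1631 of 3410 and 697 of 1843 member counts in the mice at 100% of P22, P21 and P18. The mean was 2.09% ± 1.21 (SD, n = 3) in controls, 3.93% ± 1.58 at 1% heptanal and 4.47% ± 1.40 at 100% heptanal. Of all counts in a library the members held 0.00882% ± 0.00797 in controls, 0.0157% ± 0.0107 at 1% heptanal and 0.0318% ± 0.0133 at 100% heptanal.

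**Figure D4:**
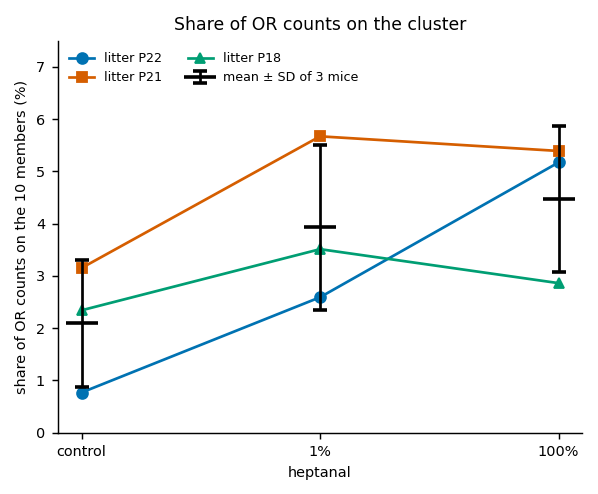
Share of all OR counts that fell on the 10 members in each mouse, in percent, with a line for each litter and black bars for the mean ± SD of 3 mice. The share is above the control in each litter at both concentrations, from 0.766% in the P22 control to 5.67% in the P21 mouse at 1% heptanal. The members were listed by their levels in these groups, so the order is a description.

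The difference between litters was not used to list the members and can be tested. With control and heptanal groups as covariates, 3 of 7 members differed between postnatal days, beside 27.0% of all genes and 29.2% of the OR genes tested, so the share of members is not far from the background. Olfr1370 had a mean of 0.419 CPM over the 3 mice of P22, 28.5 at P21 and 13.2 at P18 (adjusted p = 0.00222, edgeR's quasi-likelihood test). Olfr1535 had 0, 18.0 and 17.0 CPM (adjusted p = 0.00655 in the same edgeR test). With TMM factors over all genes this was at least 43.3-fold higher at P21 and at least 40.8-fold higher at P18 than the floor of 3 counts in each mouse of P22. The bounds were not computed with factors over OR genes and would differ there. At P22 the ORs had 12790, 10223 and 46593 counts in control, 1% and 100% heptanal, against 23360 to 63271 at P21 and 26815 to 64455 at P18. Olfr1359 had 9.40, 29.7 and 34.8 CPM (adjusted p = 0.0086 in edgeR), and the share of its counts with 1 place moved with the litters as given above. Without the P22 litter none of these 3 was called, and 1 other member was, Olfr1364, which had 141 CPM at P21 and 53.7 at P18. For Olfr1362 the means were 21.9, 17.3 and 13.6 CPM at P22, P21 and P18 (adjusted p = 0.869 in edgeR), and at P22 the mean rests on the mouse at 100% heptanal, with 51.6 CPM against 3.25 in the control. These calls depend on the scale, since with TMM factors over OR genes Olfr1362 was called between days and Olfr1359 was not.

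The 3 other OR genes of the stretch give the setting of the members. Olfr263, next to Olfr1368, had 0, 2.40 and 3.54 CPM in controls, 0, 3.65 and 6.69 CPM at 1% heptanal and 5.14, 15.4 and 12.8 CPM at 100% heptanal, at P22, P21 and P18. Its mice at 100% lie above all controls. Olfr1369-ps1, 98.11% identical to Olfr263 in its coding sequence, had 0 to 5.64 CPM in controls and 0.80 to 16.7 CPM at 100% heptanal. Of the counts of Olfr1369-ps1 51.0% had 1 place, and of those of Olfr263 70.2%, so these 2 genes cannot be fully separated. Olfr11 lies between Olfr1362 and Olfr1361 and is the gene closest to Olfr1359 after Olfr1360, with 75.4% identity. It had 0, 5.21 and 4.55 CPM in controls, 2.95, 5.39 and 5.31 CPM at 1% heptanal and 0, 2.52 and 3.76 CPM at 100% heptanal. Its level was highest at 1% in each litter, but at P21 nearly tied with the control, from 31 counts at 1% and 37 in the control. Olfr1359 was also highest at 1% in each litter, but only with rescued reads included. The fitted values of Olfr11 were 1.33 ± 1.05 at 1% and -0.63 ± 0.99 at 100% heptanal on the log2 scale, so the SE is as large as the value or nearly so. It lies 22.6 kb from Olfr1362 and 14.4 kb from Olfr1361, which were both higher than the control at 100% heptanal in all 3 litters, and Olfr11 was so in 0 litters.

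Likeness of the courses was measured by Pearson's r over the 9 mice, on log2(CPM + 1) centred within each litter, as a description. Within the cluster Olfr1362 was most like Olfr263 (r = 0.923) and Olfr1361 (r = 0.89), while r was 0.777 with Olfr1364, 0.386 with Olfr1359, 0.129 with Olfr1535 and -0.336 with Olfr11. Olfr1364 was most like Olfr263 (r = 0.917) and Olfr1368 (r = 0.898). Olfr1359 was not above r = 0.411 with any other gene of the cluster. Among OR genes elsewhere the most alike were Olfr1423, Olfr316 and Olfr30 for Olfr1362 (r = 0.964, 0.95 and 0.945), Olfr525, Olfr171 and Olfr776 for Olfr1364 (r = 0.98, 0.973 and 0.968), and Olfr524, Olfr12 and Olfr314 for Olfr1359 (r = 0.884, 0.778 and 0.772). Among other genes they were Mycbp, Plk1s1 and 4930405A21Rik for Olfr1362 (r = 0.982 to 0.984), Sgip1, Hmox2 and Hsd17b11 for Olfr1364 (r = 0.991 to 0.993), and Aaed1, Commd4 and Cdkn1a for Olfr1359 (r = 0.947 to 0.961). The genes of a mouse share its library and depth, and the most alike were picked from 14930 genes.

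OR promoters often hold sites for homeodomain factors such as Lhx2 and for Ebf factors, which OSNs need to express ORs. The windows depend on the annotation, since the RefSeq start lies 2018 bases from the GENCODE start for Olfr1362 and 7305 bases for Olfr1364. In the 300 bases before the GENCODE start, on both strands, the core TAATTA occurred in 3 of the 10 members, Olfr1362, Olfr1361 and Olfr1359, beside 25.1% of 1134 OR genes and 6.02% of 21911 protein-coding genes. The Ebf core CCCNNGGG occurred in 2 of 10, Olfr1368 and Olfr1366, beside 14.2% of OR genes and 15.4% of protein-coding genes. Both shares are near those of OR genes, and TAATTA and CCCNNGGG read the same on both strands and cannot overlap. The 120 bases before the start are shown for the 3 neighbours that were highest at 100% heptanal, with TAATTA in capitals:

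Olfr1362, chr13:21614023-21614142, minus strand: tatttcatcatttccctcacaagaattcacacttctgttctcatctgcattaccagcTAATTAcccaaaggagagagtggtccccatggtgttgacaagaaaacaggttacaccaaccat
Olfr1361, chr13:21663387-21663506, minus strand: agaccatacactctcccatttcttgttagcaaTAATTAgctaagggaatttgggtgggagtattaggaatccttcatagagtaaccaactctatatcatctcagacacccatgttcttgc
Olfr1364, chr13:21581760-21581879, minus strand: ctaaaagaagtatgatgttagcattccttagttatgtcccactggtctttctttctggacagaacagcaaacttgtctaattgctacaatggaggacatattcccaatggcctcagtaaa

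TAATTA begins 63 bases before the start of Olfr1362 and 88 before that of Olfr1361. In Olfr1364 these letters are not in the window, and in Olfr1359 they begin 192 bases before the start.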

How the data were processed

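The tables of 9 mice, 1 each, were read. Per the submitters' processing notes and the study's methods, the authors mapped 50-base reads to mm10 by Bowtie, and BEDTools gave the overlap with gene models, which they had extended for ORs. Versions are not given in the sources used here. A rescue scheme assigned reads with several places. The deposited tables have no header. From its values, column 2 of the deposited tables was taken as the authors' counts of reads with 1 place. Column 21 was taken as the estimated counts that the authors obtained with all rescued reads and deposited without normalization. PCR copies were not told apart, so floors cover counting error only.

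Estimated counts were rounded. The test was the quasi-likelihood F test of edgeR 4.0.16 (R 4.3.3; filterByExpr, TMM) over 14930 genes, with the 3 groups and postnatal day as a block, and Benjamini-Hochberg adjustment at 0.05. Same-day mice deviated together from their group means (r = 0.145 to 0.715 over 9 pairs), and the methods name them littermates, which is where the pairing comes from. DESeq2 1.42.0 was an alternative. The SE of a fold change was derived from its test statistic. The test was checked on simulated data. Each sample is 1 mouse, and p-values rest on the spread among mice left after group and postnatal day were fitted. For each gene this spread has 4 residual degrees of freedom, and edgeR moderates it toward a trend over all genes. With 1 litter per day, the p-values between days do not take in the spread between litters of the same day.

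Coordinates and starts came from GENCODE M21 (GRCm38), names and synonyms from RefSeq, and sequences from the GRCm38 genome. The 50-base stretches of each exon were matched to the whole genome. The genes named are the 10 members, the other OR genes between them, the 3 OR genes and 3 other genes most like Olfr1362, Olfr1359 and Olfr1364, the 4 most abundant neighbours that are not ORs, and 6 activity genes. Markers of 7 cell types and 14 receptor accessory genes were listed too. The members, lists and tests were chosen with earlier results of these data known.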

Additional observations from a re-analysis of the deposited data

How the results depend on the processing

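The members were refitted under 19 other settings, 17 of them planned, 9 of which left out 1 mouse each, and 2 added after seeing the data (without the litter of P22, and with Olfr1359 and Olfr1360 summed). With 3 mice a group the precision rests on few animals. At 1% heptanal the members called went from 0 to 1 with TMM over OR genes, with OSN marker scaling, with no filter on low counts, in the likelihood ratio test, in DESeq2 and with p-values adjusted over OR genes, and stayed 0 when 1 mouse was left out. With TMM over OR genes, OSN marker scaling and no filter, 5, 3 and 1 genes were called in all at 1% heptanal. At 100% heptanal they went from 1 to 6 with TMM over OR genes, 4 with OSN marker scaling, 3 with no filter, 4 in the likelihood ratio test, 4 in DESeq2, 4 adjusted over OR genes and 0 with no replicate block (of the 6, Olfr1535 was lower), and were 0 to 2 when 1 mouse was left out. For 100% against 1% heptanal they went from 0 to 5, 5, 3, 3 and 3 with TMM over OR genes, OSN marker scaling, the likelihood ratio test, DESeq2 and adjustment over OR genes, and stayed 0 when 1 mouse was left out and with no replicate block. Under the 2 scalings Olfr1359 was the lower one of the 5, and 7712 and 4657 of 14930 genes were called, against 12. In the likelihood ratio test and DESeq2 these were 226 and 211 genes. Between postnatal days they went from 3 to 6 with TMM over OR genes, 5 with OSN marker scaling, 6 in the likelihood ratio test and 1 without the litter of P22, and were 3 to 5 when 1 mouse was left out. The 6 with TMM over OR genes include Olfr1362 and not Olfr1359. Under the 2 scalings that use OSN markers or OR genes, 2654 and 6396 of 14930 genes were called at 100% heptanal, against 48, so the members' counts there stand beside a much larger background. With no filter, in the likelihood ratio test, in DESeq2 and with no replicate block these were 76, 297, 266 and 2 genes. Without the block 0 members were called in any contrast with the control. The cause of these changes was not tested.

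The log2 fold changes at 100% heptanal kept their sign in all 19 settings for Olfr1370, Olfr1368, Olfr1364, Olfr1362, Olfr1361 and Olfr1359, within 1.58 to 2.94 for Olfr1362, 2.39 to 3.73 for Olfr1361, 1.85 to 4.0 for Olfr1364, 0.87 to 3.18 for Olfr1368, 0.06 to 1.61 for Olfr1370 and 1.09 to 2.40 for Olfr1359. Olfr1535 was within -1.53 to 0.30, turning positive without the P21 control. At 1% heptanal Olfr1359 stayed within 2.68 to 3.25, Olfr1370 within -2.01 to -0.68, Olfr1535 within -3.57 to -0.31, Olfr1368 turned to at most 0.26 without the P21 control or without the P22 mouse at 1%, and Olfr1362 turned to -0.13 without the P22 control or without the P22 litter. For 100% against 1% heptanal Olfr1359 was below 0 in all 19 settings, -2.01 to -0.61, and Olfr1535 turned to -0.42 without the P21 mouse at 1%. The share of OR counts on the members was 1.55% to 2.75% in controls, 3.05% to 4.59% at 1% and 4.02% to 5.28% at 100% heptanal under its alternatives, and the share of Olfr1359 counts with 1 place was 52.0% to 66% when 1 mouse was left out.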

Other observations

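Genes other than ORs in and around the cluster did not pass the test at either concentration of heptanal. Of 26 such genes from 100 kb before the first member to 100 kb after the last, 13 are histone genes, and 13 of the 26 passed the filter on low counts. At 1% and at 100% heptanal 0 of these 13 were called by edgeR, beside 0.00% and 0.322% of all genes. With so few genes called, these counts say little about the neighbours. Beside 27.0% of all genes, 2 of the 13 differed between postnatal days, Gpx6 and Zkscan3. Gpx6, an olfactory glutathione peroxidase, was the most abundant of them. It had 33.1, 801 and 819 CPM in the controls of P22, P21 and P18, 36.3, 728 and 954 CPM at 1% heptanal, and 313, 639 and 589 CPM at 100% heptanal (adjusted p = 0.0365 between days in edgeR). Zkscan3, a zinc finger gene, had 6.34 to 10.1 CPM at P22 and 23.6 to 38.3 CPM in the other litters (adjusted p = 0.00307 in edgeR). Trim27 had 44.4 to 89.7 CPM and Zscan26 13.1 to 36.5 CPM over the 9 mice, with overlapping groups.

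Of 14 listed genes of OR transcription, trafficking and signalling, 1 was called higher at 100% heptanal, beside 0.322% of all genes. This was Omp (log2 fold change 1.11 ± 0.16, adjusted p = 0.0311 in edgeR). At 1% heptanal 0 of the 14 were called, beside 0.00% of all genes. The receptor transporter Rtp1 had 12.7 to 119 CPM at P22 and 222 to 398 CPM in the other litters (adjusted p = 0.0124 between days in edgeR), and Reep1, which also helps ORs to the membrane, 10.9 to 32.2 CPM against 23.1 to 72.9 CPM (adjusted p = 0.00691 in edgeR). Rtp1 and Reep1 were picked from the list after their values were seen. In all, 7 of the 14 differed between days, beside 27.0% of all genes. Over the other cell types, the summed markers of red blood cells differed most between litters, with 647 to 1030 CPM at P18, 3790 to 7760 at P21 and 5370 to 8300 at P22. The markers of immature OSNs had 425 to 743 CPM at P22, 786 to 988 at P21 and 753 to 1040 at P18. Those of basal cells had 31 to 140 CPM, of Bowman gland cells 450 to 1110 and of immune cells 97.6 to 259 over all mice. The part of these cell types in the levels of the members was not tested.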
